A study of Mus musculus with 14 samples.

Results

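The BCL-2 family sets the threshold at which a cell dies by apoptosis, and 10 of its genes were followed here in regulatory T cells (Tregs), a CD4 lineage defined by the transcription factor Foxp3 that holds immune responses in check. The 10 genes were taken from a list of family members and matched by NCBI Gene number among the 27179 genes of the deposited count table; all 10 were found and all 10 had enough counts to be tested. The main roles were covered: 3 guardians (Bcl2, Bcl2l1 and Mcl1), 2 effectors (Bax and Bak1) and 5 BH3-only genes (Bcl2l11, Bbc3, Pmaip1, Bid and Bad). Tregs were sorted by the yellow fluorescent protein of a Foxp3-Cre-YFP allele from the spleens and tumors of mice bearing MC38 in the flank; MC38 is a colon carcinoma line of the mouse, and tumors had reached their endpoint. The groups were tumor Tregs labelled Flox (B6.IL23RFlox FoxP3Cre-YFP, 3 libraries), tumor Tregs labelled WT (B6.IL23RWT FoxP3Cre-YFP, 4 libraries), spleen Tregs labelled Flox (3 libraries) and spleen Tregs labelled WT (4 libraries). All 4 groups came from tumor-bearing mice and carried the Foxp3-driven Cre; the Flox allele is designed to delete Il23r, which encodes a subunit of the IL-23 receptor, in cells that express Foxp3. The sources used here give no ages, and nothing in the labels says that the replicates were separate mice; p-values therefore measure only how far these samples spread, which may be technical.

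In a healthy cell the guardian proteins hold the effectors and the BH3-only proteins in check at the mitochondrial membrane. BH3-only proteins rise or are activated under stress or when survival signals are withdrawn, and they free or activate BAX and BAK, which then open the outer mitochondrial membrane and release the factors that switch on caspases. In T cells, BCL-2 is known for keeping naive and resting cells alive downstream of interleukin-7, BCL-XL (the product of Bcl2l1) for being induced by antigen receptor and CD28 signals, and MCL-1 for being required for Treg survival. Much of the control of this family acts on protein stability and binding, which messenger RNA does not measure.

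The promoters of Bcl2 and Bcl2l1 are shown because these genes lay on opposite sides of the tissue comparison. Both are from RefSeq on GRCm38.p6, run from 250 bases before the annotated start to 50 bases after it, and are written on the strand of the gene. The Bcl2 window was chr1:106714241-106714540 (minus strand). Bcl2l1 had 3 annotated windows, of which chr2:152830668-152830967 (minus strand) is printed. Capitals mark its match to the NF-kB motif. The most upstream window ended at 152831978 and the annotated gene at 152833803, so a start at the upstream end of the gene was not searched.
Bcl2: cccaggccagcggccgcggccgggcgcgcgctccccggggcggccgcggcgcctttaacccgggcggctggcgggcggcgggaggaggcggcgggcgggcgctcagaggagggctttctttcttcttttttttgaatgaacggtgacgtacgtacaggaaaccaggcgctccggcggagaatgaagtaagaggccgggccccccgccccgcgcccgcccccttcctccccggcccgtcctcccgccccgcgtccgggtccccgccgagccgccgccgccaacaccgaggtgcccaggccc
Bcl2l1: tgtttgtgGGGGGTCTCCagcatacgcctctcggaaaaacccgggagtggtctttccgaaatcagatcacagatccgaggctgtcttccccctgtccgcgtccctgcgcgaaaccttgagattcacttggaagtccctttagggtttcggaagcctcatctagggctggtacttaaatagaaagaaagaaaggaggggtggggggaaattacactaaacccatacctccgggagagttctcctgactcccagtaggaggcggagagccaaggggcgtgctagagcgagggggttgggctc
The Bcl2 window held 44 CpG dinucleotides and was 76% G or C, and the printed Bcl2l1 window held 14 CpG dinucleotides and was 55.7% G or C. The following sequence motifs were searched on both strands, none of which contains another: STAT (TTCNNNGAA), NF-kB, FOXO (GTAAACA), AP-1 (TGANTCA) and a hypoxia response core (ACGTG). The Bcl2 window held no match to any of the 5 motifs, and the NF-kB match was the single match over the 3 Bcl2l1 windows. Of 32851 promoter windows of the same length, 8.46% held an NF-kB match, 8.3% a STAT match, 3.65% a FOXO match, 7.81% an AP-1 match and 19.6% a hypoxia response match. These shares are per window, whereas 3 windows were searched for Bcl2l1, and only the printed one held a match. Which Bcl2l1 start these cells used was not measured, and a match describes the letters of a window, not a binding site.

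The libraries held 4859099 to 10333892 counts, with 13657 to 15312 genes detected. Values below are CPM, counts scaled to a fixed library total after adjustment by TMM. This scaling adjusts for composition differences between libraries and takes most genes as unchanged. Its factors were 0.745 to 0.981 in tumor and 1.03 to 1.26 in spleen libraries, so it raised tumor values relative to spleen values. Il23r itself was barely detected: the Flox-labelled tumor libraries held 17 counts in all and the WT-labelled ones 2, and the Flox-labelled spleen libraries held 10 counts and the WT-labelled ones 2. In both tissues this direction goes against the labels, and 9 of the 10 counts in Flox-labelled spleen came from replicate 3. The counts are totals per gene, so they cannot show whether the part removed by the Flox allele was read. Genotypes are therefore named by label (Flox-labelled, WT-labelled) and each direction drawn from them follows the label. The Treg marker list was Foxp3, Il2ra, Ctla4, Ikzf2, Cd4, Cd3e, Cd3d and Cd3g. These 8 genes summed to 4830 to 9403 CPM in tumor and 2429 to 3920 CPM in spleen libraries. Cd4 and the Cd3 genes are also carried by other CD4 T cells, so the sum does not by itself identify Tregs. Xist and Y-linked reads separated Flox-labelled from WT-labelled libraries, so genotype and sex cannot be told apart, and both WT replicate 2 libraries held both kinds of read. In such bulk samples, fewer cells of a type and less RNA per cell cannot be told apart.

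Among tumor Tregs Bcl2l1 was high and Bcl2 low, whereas spleen Tregs had more Bcl2 and less Bcl2l1, and Pmaip1, the gene of the BH3-only protein NOXA, was high in tumor. Over both genotypes, 5 of the 10 genes passed the test of tumor against spleen (edgeR quasi-likelihood test, Benjamini-Hochberg adjusted p under 0.05 over 12008 genes): Bcl2l1, Pmaip1, Bak1 and Bad rose and Bcl2 fell. Of all genes tested, 22.5% passed, 12.3% as higher and 10.2% as lower in tumor. The median log2 fold change of the 10 genes was 0.042, beside 0.025 for all genes tested. The groups of 7 libraries did not overlap for 3 of the 10 genes, all higher in tumor (Bcl2l1, Pmaip1 and Bak1), where 9.39% of all genes did not overlap in either direction. The count of 5 fell to 3 without tumor WT replicate 1, spleen Flox replicate 3, or spleen WT replicate 2, 3 or 4, and also without both WT replicate 2 libraries; Bcl2l1, Pmaip1 and Bak1 kept their calls without each of the 14 libraries in turn.

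**Figure D1:**
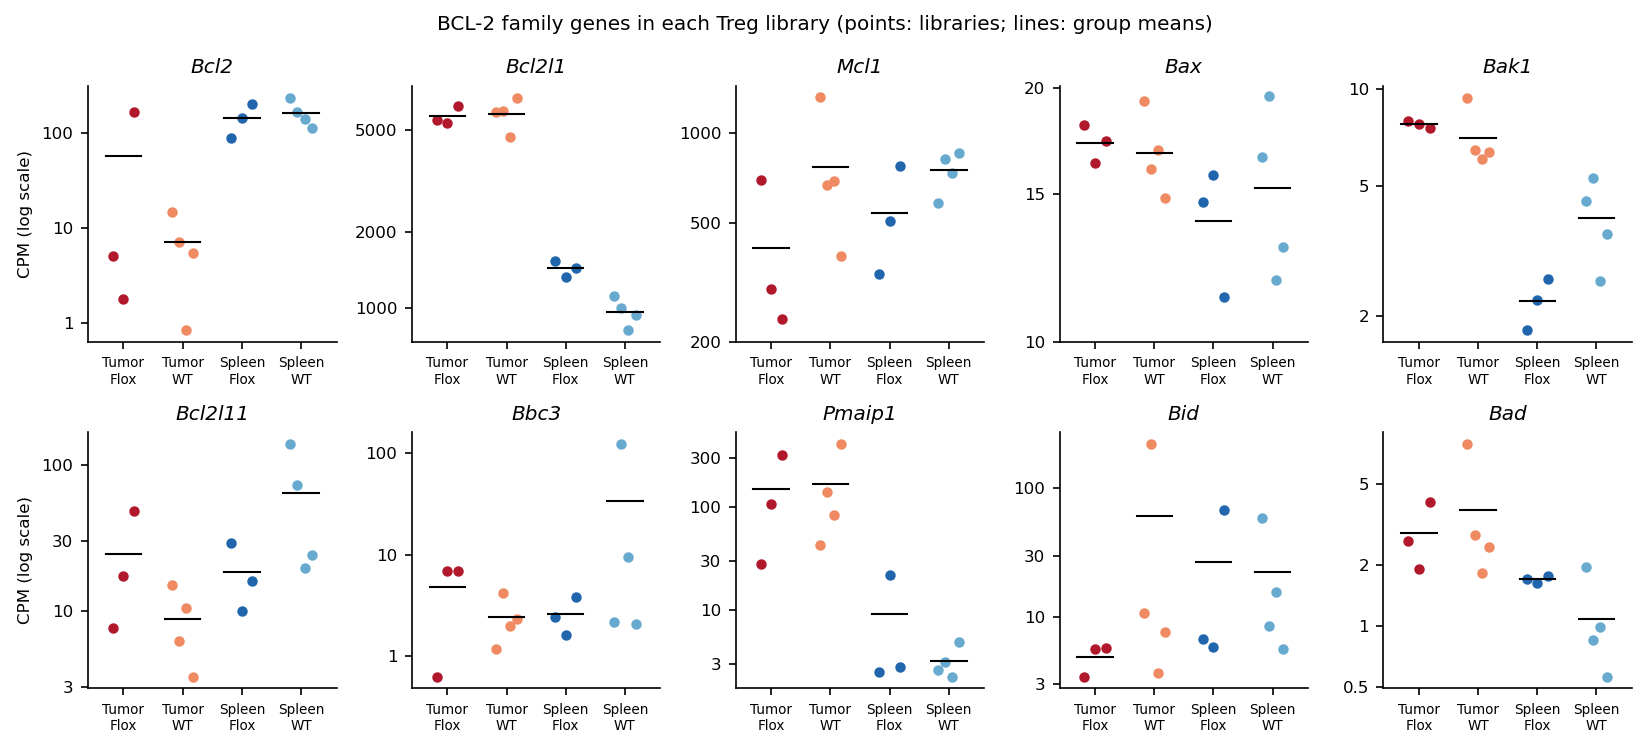
Level of each of the 10 genes in CPM on log axes whose ranges differ between panels, with a point for each library and a line at each group mean (n = 3 for Flox-labelled and 4 for WT-labelled groups). Bcl2l1, Pmaip1 and Bak1 were higher in every tumor than in every spleen library, and Bcl2 was low in 6 of 7 tumor libraries, with tumor Flox replicate 3 at 165 CPM inside the range of the spleen libraries.

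Bcl2l1, the guardian BCL-XL (NCBI Gene 12048, chromosome 2, 152758732 to 152833803 on GRCm38), stood at 5502, 5338 and 6232 CPM in the Flox-labelled tumor libraries, and was at 5888, 5937, 4686 and 6708 CPM in the WT-labelled tumor libraries. Its spleen values were 1539, 1331 and 1442 CPM in the Flox-labelled and 1120, 1000, 820 and 944 CPM in the WT-labelled libraries. Every tumor library lay above every spleen library, and the tumor libraries spread by no more than 1.43 times. The log2 fold change was 2.33 ± 0.14 (SE; edgeR adjusted p = 1.43e-06), and by its p Bcl2l1 ranked 1 of the 12008 genes tested.

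Bcl2, the founding guardian (NCBI Gene 12043, chromosome 1, 106538176 to 106714290), moved the other way. It stood at 5.12, 1.79 and 165 CPM in the Flox-labelled tumor libraries, and was at 14.8, 7.21, 0.845 and 5.52 CPM in the WT-labelled tumor libraries. Its spleen values were 88.2, 144 and 200 CPM in the Flox-labelled and 235, 166, 139 and 112 CPM in the WT-labelled libraries. In 6 of 7 tumor libraries Bcl2 was far below every spleen library, and tumor Flox replicate 3 lay among the spleen libraries. The log2 fold change was −3.19 ± 1.07 (SE; edgeR adjusted p = 0.0451), and −4.84 with an adjusted p of 0.000357 without tumor Flox replicate 3. The call was lost without any of 10 other libraries (all 4 tumor WT, all 4 spleen WT, tumor Flox replicate 1 and spleen Flox replicate 3; adjusted p = 0.0566 to 0.0923) and without both WT replicate 2 libraries (adjusted p = 0.102).

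Markers of B cells, which also transcribe Bcl2, moved with this gene. The 11 B cell and plasma cell markers summed to 50.8 to 311 CPM in tumor and 458 to 2136 CPM in spleen libraries, and 9 of the 10 that could be tested were lower in tumor (edgeR adjusted p under 0.05), where 10.2% of all genes were. Ms4a1, which encodes CD20, was between 0 and 1.35 CPM in tumor and between 43.2 and 667 CPM in spleen. Tumor Flox replicate 3, with 165 CPM of Bcl2, had a B cell marker sum of 51.8 CPM and 0.113 CPM of Ms4a1. Spleen WT replicate 2 had the highest B cell marker sum at 2136 CPM and 166 CPM of Bcl2, within the range of the other spleen libraries. The part of B cells in the spleen level of Bcl2 was not tested.

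Some markers of other cells were higher in tumor, beside the genes that rose there. Of 6 testable tumor, fibroblast and endothelial markers, 4 were higher (the fibroblast genes Col1a1, Col1a2, Col3a1 and Dcn) and 1 was lower (the epithelial gene Epcam), where 12.3% of all genes were higher and 10.2% lower. Col3a1, a collagen gene, was between 5.59 and 93.2 CPM in tumor and between 0 and 0.702 CPM in spleen. The 12 markers of this list summed to 40.9 to 297 CPM in tumor and 59.1 to 172 CPM in spleen, and the keratin gene Krt19 had 0 counts in all 14 libraries. Of 10 testable macrophage and monocyte markers, 4 were higher (Cd14, C1qa, C1qb and C1qc) and 1 was lower (Mrc1); the 11 markers of this list summed to 15.2 to 168 CPM in tumor and 7.59 to 249 CPM in spleen. The 6 dendritic cell markers summed to 5.64 to 27.2 CPM in tumor and 0.592 to 2.65 CPM in spleen. The 6 CD8 T and NK cell markers summed to 11.4 to 501 CPM in tumor, highest in WT replicate 1, and 4.85 to 38.6 CPM in spleen. The 6 neutrophil markers summed to 1.97 to 168 CPM in tumor, highest in Flox replicate 2, and 1.37 to 57.8 CPM in spleen. The part of these other cells in the tumor levels of Bcl2l1, Pmaip1, Bak1 and Bad was not tested.

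Mcl1, the guardian with a short-lived protein (NCBI Gene 17210, chromosome 3, 95656944 to 95663179), overlapped between the tissues. It stood at 698, 302 and 239 CPM in the Flox-labelled tumor libraries, at 1318, 671, 693 and 386 CPM in the WT-labelled tumor libraries, at 337, 506 and 774 CPM in the Flox-labelled spleen libraries, and was at 584, 819, 736 and 858 CPM in the WT-labelled spleen libraries. The tumor libraries spread by 5.52 times and the spleen libraries by 2.55 times. Its log2 fold change was −0.14 with 95% limits of −0.83 to 0.54 (edgeR adjusted p = 0.785), so a change of either sign within these limits could not be resolved.

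Per kilobase of exon, which allows levels of different genes to be set side by side, Bcl2l1 had the highest median of the 10 genes in both tissues, with 1515 CPM per kilobase in tumor and 288 CPM per kilobase in spleen. Mcl1 was next, with 196 CPM per kilobase in tumor and 215 CPM per kilobase in spleen. Bcl2 was last of the 10 in tumor, with a median of 0.602 CPM per kilobase, and in the fourth place in spleen, with 15.7 CPM per kilobase, close to Bax at 16.9 CPM per kilobase. Pmaip1 was in the third place in tumor at 39.2 CPM per kilobase, with Bax next at 19.5, and in the ninth place in spleen at 1.04 CPM per kilobase. The ranges of Pmaip1 (10.2 to 148 CPM per kilobase) and Bax (17.1 to 22.3) overlapped in tumor. The remaining genes (Bak1, Bid, Bcl2l11, Bbc3 and Bad) had medians between 1.09 and 3.16 CPM per kilobase in tumor and between 0.676 and 3.89 CPM per kilobase in spleen. In the order of medians, neighbours did not overlap between Bcl2l1 and Mcl1 or between Bax and Bak1 in tumor, nor between Mcl1 and Bax or between Pmaip1 and Bad in spleen. All other neighbours overlapped in their tissue, including Bcl2l1 and Mcl1, and Bax and Bcl2, in spleen.

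Of the effectors, Bak1 passed and Bax did not. Bak1 (NCBI Gene 12018, chromosome 17, 27019812 to 27028627) encodes BAK, which sits in the mitochondrial membrane. It stood at 7.94, 7.78 and 7.54 CPM in the Flox-labelled and 9.38, 6.46, 6.05 and 6.37 CPM in the WT-labelled tumor libraries, against 1.81, 2.24 and 2.6 CPM in the Flox-labelled and 4.5, 5.31, 2.56 and 3.57 CPM in the WT-labelled spleen libraries. No tumor library overlapped a spleen library, and the log2 fold change was 1.24 ± 0.29 (SE; edgeR adjusted p = 0.0076). These values rest on 18 to 76 counts per library. Bax (NCBI Gene 12028, chromosome 7, 45461695 to 45466903), the effector that moves from the cytosol to mitochondria, had the narrowest range of the 10 over the 14 libraries, at 14.8 to 19.3 CPM in tumor and 11.3 to 19.6 CPM in spleen. Its log2 fold change was 0.21 with 95% limits of −0.31 to 0.74 (edgeR adjusted p = 0.576).

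Of the BH3-only genes, Pmaip1 and Bad rose in tumor, and Bcl2l11, Bbc3 and Bid did not pass. Pmaip1 (NCBI Gene 58801, chromosome 18, 66458604 to 66465558) encodes NOXA, which binds MCL-1. It stood at 28, 107 and 316 CPM in the Flox-labelled and 42.8, 138, 84.3 and 406 CPM in the WT-labelled tumor libraries, against 2.51, 22.1 and 2.85 CPM in the Flox-labelled and 2.66, 3.12, 2.27 and 4.89 CPM in the WT-labelled spleen libraries. The tumor libraries spread by 14.5 times, and the lowest of them, at 28 CPM, lay just above the highest spleen library, Flox replicate 2 at 22.1 CPM. Tumor exceeded spleen by 4.99 ± 0.83 on the log2 scale (SE; edgeR adjusted p = 0.000953), the largest in size among the 10 genes in this comparison, and by 5.72 without spleen Flox replicate 2.

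Bad (NCBI Gene 12015, chromosome 19, 6941861 to 6951905), whose protein is held inactive by phosphorylation under survival signals, was low everywhere, with 3 to 40 counts per library. It ranged over 1.83 to 7.81 CPM in tumor and over 0.564 to 1.95 CPM in spleen, and the highest spleen library overlapped the lowest tumor libraries. Its tumor over spleen change was 1.31 ± 0.42 on the log2 scale (SE; edgeR adjusted p = 0.0378), and the call was lost when any of 8 libraries was left out (tumor Flox replicate 3, tumor WT replicate 1, each spleen Flox library, or spleen WT replicate 2, 3 or 4; adjusted p = 0.0501 to 0.0756), with no filter on low counts (0.0926) and without both WT replicate 2 libraries (0.0927).

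Bcl2l11 (NCBI Gene 12125, chromosome 2, 128126038 to 128162547) encodes BIM, the BH3-only protein that removes activated lymphocytes when cytokine is withdrawn. It stood at 7.63, 17.5 and 48.6 CPM in the Flox-labelled and 15, 6.24, 10.6 and 3.56 CPM in the WT-labelled tumor libraries, against 29.1, 9.95 and 16.2 CPM in the Flox-labelled and 139, 73.6, 19.7 and 24.1 CPM in the WT-labelled spleen libraries. The tissues overlapped over both genotypes, and every WT-labelled tumor library lay below every WT-labelled spleen library. In that WT-labelled comparison 18% of all genes did not overlap in either direction. The log2 fold change over both genotypes was −1.50 ± 0.81 (SE; edgeR adjusted p = 0.206).

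Bbc3 (NCBI Gene 170770, chromosome 7, 16308398 to 16318334) encodes PUMA, a target of p53. It ranged over 0.627 to 6.89 CPM in tumor and over 1.62 to 9.47 CPM in 6 of 7 spleen libraries, and spleen WT replicate 2 stood apart at 123 CPM. Its log2 fold change was −1.95 ± 1.34 (SE; edgeR adjusted p = 0.324) and came to −0.12 without that library. Bid (NCBI Gene 12122, chromosome 6, 120893119 to 120917062), which links death receptors to mitochondria, was at 3.45 to 10.7 CPM in 6 of 7 tumor libraries, and was at 221 CPM in tumor WT replicate 2. In spleen it was at 5.64 to 15.8 CPM in 5 of 7 libraries, and was at 68 CPM in Flox replicate 3 and 59.5 CPM in WT replicate 1. Its log2 fold change was −0.13 ± 1.25 (SE; edgeR adjusted p = 0.957).

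Exons of 5 of these genes overlap another annotated gene: Bcl2 shares 558 exonic bases with D630008O14Rik, Bak1 614 with Ggnbp1, Bid 628 with Bcl2l13 and Bad 524 with Gpr137, all on the opposite strand, and Bax shares 192 with Gm45808 on its own strand. The sources used here do not give the strand setting of the counting, so reads from these stretches could not be assigned. Bcl2l13 was at 57.9 CPM in tumor WT replicate 2, the library with 221 CPM of Bid, and at 8.11 to 22.5 CPM in the other tumor libraries. In spleen, Bcl2l13 was highest in Flox replicate 1, at 72.6 CPM, where Bid was at 6.82 CPM. It was at 11.6 CPM in spleen Flox replicate 3 and 8.29 CPM in spleen WT replicate 1, where Bid was at 68 and 59.5 CPM.

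**Figure D2:**
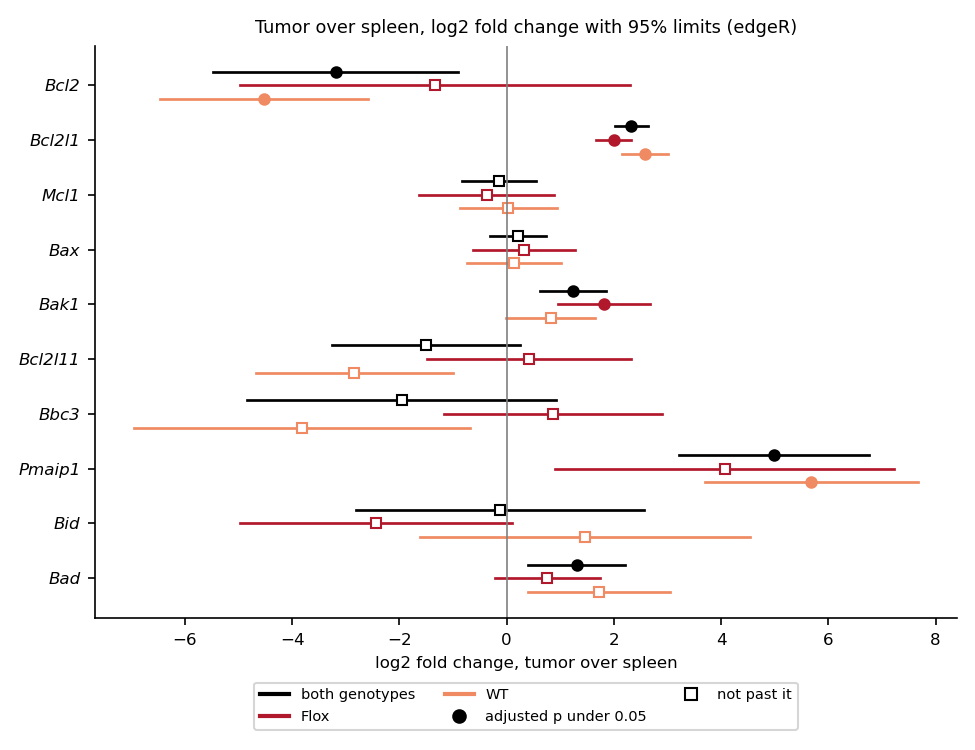
Log2 fold change of tumor over spleen for each gene, as points with 95% limits from edgeR, over both genotypes (black, 7 against 7 libraries), in Flox-labelled libraries (red, 3 against 3) and in WT-labelled libraries (orange, 4 against 4). Filled circles mark an adjusted p under 0.05; Bcl2l1 is filled in all 3 fits, between 2.00 and 2.58, and the limits of Bid and Bbc3 span several log2 units.

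Within each genotype label the tissue difference of Bcl2l1 was present, and that of Bcl2 was called in WT-labelled libraries. Among Flox-labelled libraries, 2 of the 10 genes passed, where 7.87% of 10760 genes did. Bcl2l1 rose by a log2 fold change of 2.00 ± 0.14 (SE; edgeR adjusted p = 0.0145), and its call was lost without any of the 3 spleen libraries (adjusted p = 0.0572 to 0.0647). Bak1 rose by 1.82 ± 0.36 (edgeR adjusted p = 0.0347), and its call was lost without each of the 6 libraries in turn (adjusted p = 0.0691 to 0.102). Bcl2 was at −1.33 ± 1.52 (adjusted p = 0.608), and at −5.29 with an adjusted p of 0.0563 without tumor Flox replicate 3. Pmaip1 was at 4.07 ± 1.32 (adjusted p = 0.111) with no overlap between the tissues, which was so for 33% of genes in this comparison of 3 against 3. In data simulated with the spread of this comparison and 200 genes changed, 4% of genes changed 16-fold were recovered. In the real comparison 847 genes passed. Recovery after adjustment depends on how many genes change, so this share cannot be carried over. Large differences could still go uncalled.

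Among WT-labelled libraries, 3 of the 10 genes passed, where 7.1% of 10560 genes did: Bcl2l1 rose (log2 fold change 2.58 ± 0.19, SE; edgeR adjusted p = 0.0029), Pmaip1 rose (5.68 ± 0.88; adjusted p = 0.0093) and Bcl2 fell (−4.53 ± 0.86; adjusted p = 0.0183). The Bcl2 groups did not overlap in this comparison, nor did those of 18% of genes, and the call was lost without tumor WT replicate 2 or 4 (adjusted p = 0.0521 and 0.0551). Without tumor WT replicate 1 Bcl2 was at −5.14, and without tumor WT replicate 4 Pmaip1 was at 4.79. Bcl2l11 was at −2.84 ± 0.81 and missed the threshold in edgeR (adjusted p = 0.0685), while DESeq2, an alternative test, called it (adjusted p = 0.00149). Without both WT replicate 2 libraries, Bcl2l1 alone passed, with Pmaip1 at an adjusted p of 0.0506 and Bcl2 at 0.0786. In data simulated with the spread of the WT-labelled comparison and 200 genes changed, 28% of genes changed 16-fold were recovered. In the real comparison 750 genes passed, so this share cannot be carried over either.

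The ratio of Bcl2l1 to Bcl2 counts within a library puts the 2 guardians on a scale that does not depend on library size. It was 1064, 2886 and 37.9 in Flox-labelled tumor libraries and 394, 818, 5122 and 1203 in WT-labelled tumor libraries. In spleen it was 17.4, 9.24 and 7.22 in Flox-labelled and 4.76, 6.02, 5.9 and 8.45 in WT-labelled libraries. The tumor ratios rest on 49, 14 and 1461 Bcl2 counts in Flox-labelled and 76, 67, 6 and 45 in WT-labelled libraries. The highest ratios, 5122 and 2886, rest on 6 and 14 Bcl2 counts, so their size is uncertain. Every tumor library lay above every spleen library, including tumor Flox replicate 3, in which Bcl2 was high. Corrected for exon length, the ratio ran from 89.2 to 12066 in tumor and from 11.2 to 41.1 in spleen.

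On the log2 scale, with 0.5 added to each count, the mean ratio was 8.93 ± 3.27 in Flox-labelled tumor (SD, n = 3), 10.2 ± 1.56 in WT-labelled tumor (n = 4), 3.39 ± 0.656 in Flox-labelled spleen (n = 3) and 2.62 ± 0.342 in WT-labelled spleen libraries (n = 4). Tumor exceeded spleen over both genotypes by 6.71 ± 0.943 (SE), a 105-fold difference (two-sided exact permutation p = 0.00143, the smallest this design allows, and 0.00857 adjusted over 6 comparisons). Without tumor Flox replicate 3 the difference was 7.51, or 183-fold, with the same p. In Flox-labelled libraries the difference was 5.54 ± 1.93 (exact permutation p = 0.1, the smallest possible, adjusted p = 0.15), and in WT-labelled libraries 7.59 ± 0.797 (exact permutation p = 0.0286, the smallest possible, adjusted p = 0.0857). Neither adjusted value passed 0.05, a level that 3 against 3 cannot reach. The Flox-labelled difference was 7.38 without tumor Flox replicate 3 and 4.25 without tumor Flox replicate 2, and the WT-labelled one 6.89 without tumor WT replicate 3.

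**Figure D3:**
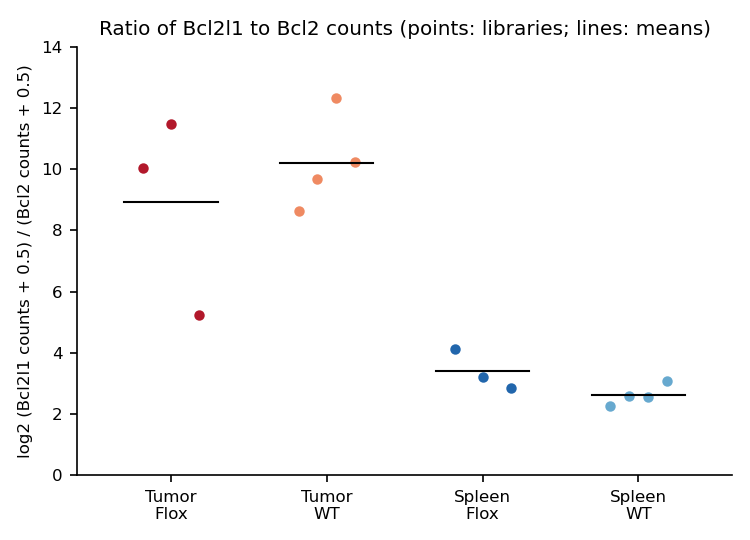
Log2 ratio of Bcl2l1 to Bcl2 counts, with 0.5 added to each, in each library (points) with group means (lines). The 7 tumor libraries lie between 5.24 and 12.3 and the 7 spleen libraries between 2.25 and 4.12.

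The study's own question was what loss of Il23r does to Tregs within each tissue, and none of the 10 genes passed in that comparison. In tumor, Flox-labelled against WT-labelled libraries gave 0 of 10777 genes (0%) past an edgeR adjusted p of 0.05, with 871 genes (8.08%) at an unadjusted p under 0.05 and 218 genes (2.02%) past DESeq2's adjusted p. None of the 10 genes was at an unadjusted p under 0.05 in edgeR, and none of those to which DESeq2 gave an adjusted p passed there. In spleen, 0 of 10935 genes (0%) passed, with 750 (6.86%) at an unadjusted p under 0.05 and 121 (1.11%) past DESeq2's adjusted p. Of the 10 genes, Bcl2l1 alone was at an unadjusted p under 0.05 in spleen, and DESeq2 called none of those it gave an adjusted p.

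In tumor, Bcl2l1 averaged 5691 ± 476 CPM in the Flox-labelled libraries (SD, n = 3) and 5805 ± 835 CPM in the WT-labelled libraries (n = 4). The log2 fold change was −0.036 with 95% limits of −0.40 to 0.33 (edgeR adjusted p = 0.969), the narrowest limits among the 10 genes. Bcl2 averaged 57.1 ± 93 CPM in the Flox-labelled and 7.1 ± 5.82 CPM in the WT-labelled libraries, at a log2 fold change of 2.99 ± 1.53 (SE; edgeR adjusted p = 0.584). That difference came from Flox replicate 3 at 165 CPM: without it the log2 fold change was −0.998. Mcl1 averaged 413 ± 249 CPM in the Flox-labelled and 767 ± 393 CPM in the WT-labelled libraries, at −0.90 ± 0.59 (adjusted p = 0.65).

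Bid in tumor was at −3.64 ± 1.62 (SE; edgeR adjusted p = 0.584), and WT replicate 2 with 221 CPM made most of it, since the value was −0.56 without that library. Bcl2l11 was at 1.45 ± 0.75 (edgeR adjusted p = 0.586), with Flox-labelled libraries between 7.63 and 48.6 CPM and WT-labelled ones between 3.56 and 15 CPM. Bax, Bak1, Pmaip1, Bbc3 and Bad lay between −0.36 and 0.95 on the log2 scale, with adjusted p of 0.731 to 0.991.

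In spleen, Bcl2l1 averaged 1437 ± 104 CPM in Flox-labelled (SD, n = 3) and 971 ± 124 CPM in the WT-labelled libraries (n = 4). Every Flox-labelled library lay above every WT-labelled one; the groups did not overlap, in either direction, for 5.88% of all genes tested. The log2 fold change was 0.57 ± 0.16 (SE), with an unadjusted edgeR p of 0.00824 and an adjusted p of 0.674, so it did not pass. Bcl2 averaged 144 ± 55.7 CPM in the Flox-labelled and 163 ± 53.1 CPM in the WT-labelled libraries, at −0.18 with 95% limits of −1.11 to 0.75 (adjusted p = 0.939). Mcl1 averaged 539 ± 220 CPM in the Flox-labelled and 749 ± 122 CPM in the WT-labelled libraries, at −0.48 ± 0.31 (adjusted p = 0.738).

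Bbc3 in spleen was at −3.69 ± 1.61 (SE; edgeR adjusted p = 0.674), and at −0.82 without WT replicate 2. Bcl2l11 was at −1.78 ± 0.82 and Bak1 at −0.84 ± 0.40 (edgeR adjusted p = 0.674 for each). Bak1 lay between 1.81 and 2.6 CPM in Flox-labelled libraries and between 2.56 and 5.31 CPM in WT-labelled ones, which overlapped. Pmaip1, Bax, Bid and Bad lay between −0.13 and 1.49, with adjusted p of 0.692 to 0.97.

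**Figure D4:**
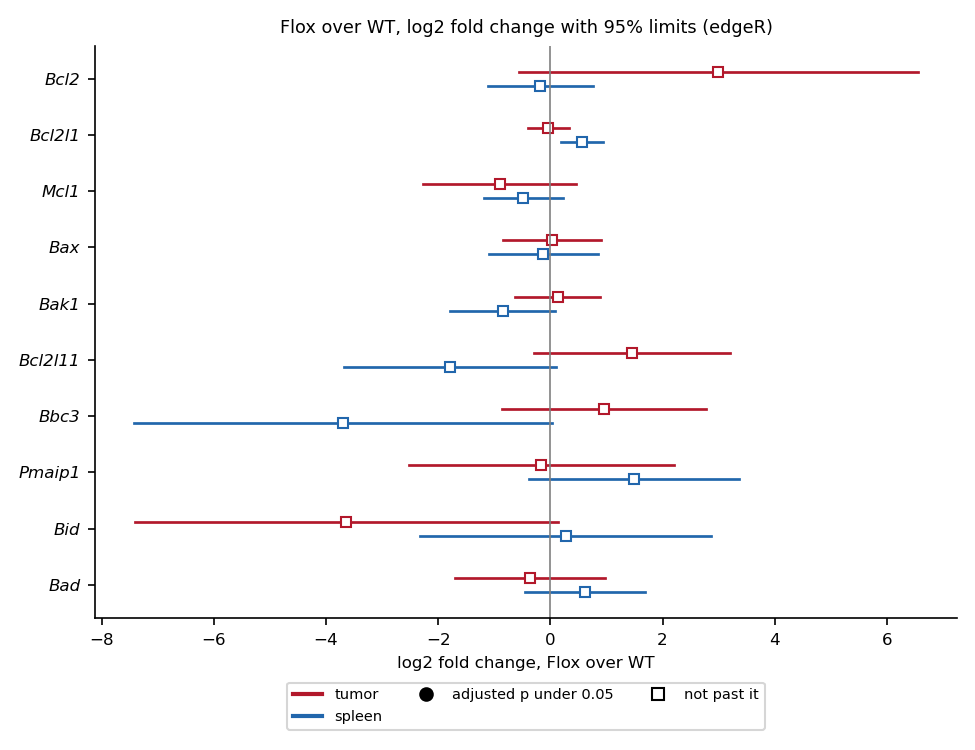
Log2 fold change of Flox-labelled over WT-labelled libraries for each gene, as open squares with 95% limits from edgeR, in tumor (red, 3 against 4 libraries) and in spleen (blue, 3 against 4). No gene is marked as past an adjusted p of 0.05; in tumor the limits of Bcl2l1 reach from −0.40 to 0.33 and those of Bcl2 from −0.56 to 6.55.

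Whether the genotype difference itself differed between tumor and spleen was tested as an interaction over all 14 libraries, and 0 of 12008 genes (0%) passed in edgeR, with 1296 (10.8%) at an unadjusted p under 0.05 and 125 (1.04%) past DESeq2's adjusted p. None of the 10 genes passed in edgeR, nor in DESeq2 where it gave an adjusted p. Bcl2l11 (difference of log2 fold changes 3.28 ± 1.18, SE), Bbc3 (4.67 ± 1.82) and Bcl2l1 (−0.59 ± 0.24) were at an unadjusted p under 0.05 and at edgeR adjusted p of 0.425, 0.425 and 0.431. For Bcl2, called for tissue in WT-labelled and not in Flox-labelled libraries, this difference was 3.19 ± 1.69 (edgeR adjusted p = 0.51). The Bcl2l1 to Bcl2 ratio differed between genotype labels by −1.28 ± 2.04 in tumor (log2, SE; two-sided exact permutation p = 0.571, adjusted p = 0.571) and by 0.775 ± 0.415 in spleen (exact permutation p = 0.0857, adjusted p = 0.15). The difference between these was −2.06 ± 2.09 (exact permutation p = 0.304, adjusted p = 0.364). In simulated data with 200 genes changed, 0% of genes changed 16-fold were recovered for the genotype comparison in tumor and 44% in spleen. Differences of this size could therefore go uncalled.

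Other members of the family moved with the tissue. Of 15 further family genes, 9 could be tested, and 5 rose in tumor and 0 fell, where 22.5% of all genes passed; their median log2 fold change was 1.49, beside 0.025 for all genes. Bnip3, a mitochondrial BH3-like gene known as a target of hypoxia, stood at 35.7 to 55.3 CPM in tumor and 0.717 to 3.01 CPM in spleen (log2 fold change 4.91 ± 0.38, SE; edgeR adjusted p = 3.66e-06). Bcl2l2, the guardian BCL-W, stood at 1.98 to 5.08 CPM in tumor and 0.498 to 1.81 CPM in spleen (1.49 ± 0.38; adjusted p = 0.0126). The guardian A1 has near-identical copies in the mouse genome, so their values are uncertain. Bcl2a1b ranged over 27.7 to 48.6 CPM in tumor and 6.82 to 17.8 CPM in spleen (1.90 ± 0.31, edgeR adjusted p = 0.000926). Bcl2a1d was at 2.37 ± 0.30 and Bcl2a1a at 2.37 ± 0.36. These copies can share reads, so they are not independent genes in the count of 5 or in the median. For all 5 genes every tumor library lay above every spleen library, as for 5.91% of all genes.

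**Figure D5:**
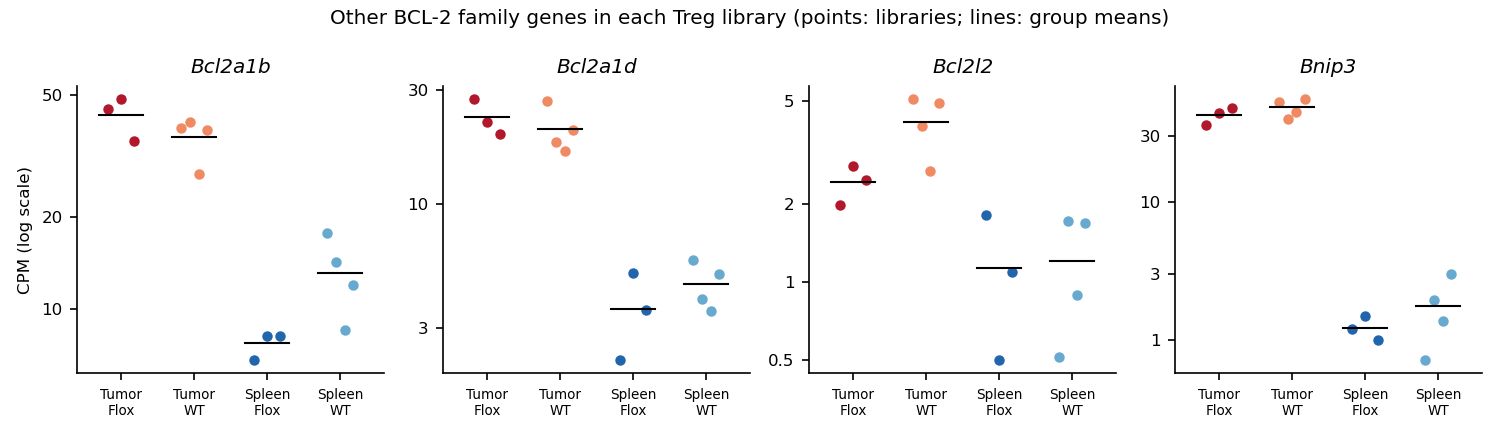
Level of 4 further BCL-2 family genes in CPM on log axes whose ranges differ between panels, with a point for each library and a line at each group mean. In each panel all 7 tumor libraries lie above all 7 spleen libraries; Bnip3 is at 35.7 to 55.3 CPM in tumor and at 0.717 to 3.01 CPM in spleen.

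Cytokine and costimulatory signals feed the family. Of 22 genes of such signals tested, 10 rose in tumor and 2 fell, where 12.3% of all genes rose and 10.2% fell; the median log2 fold change was 0.77, beside 0.025 for all genes. Icos, a costimulatory receptor of the CD28 family, stood at 934 to 1598 CPM in tumor and 44.1 to 121 CPM in spleen (3.75 ± 0.28, SE; edgeR adjusted p = 2.49e-06). The tumor necrosis factor receptor family members Tnfrsf9 (4-1BB; 2.68 ± 0.29), Tnfrsf4 (OX40; 2.43 ± 0.28) and Tnfrsf18 (GITR; 2.33 ± 0.27) rose too. Those that fell, named for their sign, were Pik3ip1, an inhibitor of PI3 kinase (−4.81 ± 0.83), and Foxo1, a transcription factor of resting T cells (−1.32 ± 0.33). Immediate early and heat shock genes, which can mark handling of the cells, had a positive log2 fold change for 14 of 14 members, of which 3 passed, where 50.7% of all genes were positive and 22.5% passed. They summed to 1508 to 3315 CPM in tumor and 1293 to 2665 CPM in spleen; their part in these results was not tested.

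Downstream and upstream of the mitochondria the lists were mixed. Among genes of the apoptosome, caspases and caspase inhibitors, passing genes went in both directions. Apaf1, the scaffold of the apoptosome (2.21 ± 0.59, SE; edgeR adjusted p = 0.0157), rose, and Diablo, an antagonist of caspase inhibitors (−1.41 ± 0.33; adjusted p = 0.00732), and Dffa, an inhibitor of the apoptotic nuclease (−1.65 ± 0.39; adjusted p = 0.00825), fell. The median of this list of 19 genes was 0.42. Of 16 death receptor pathway genes, 4 rose and 0 fell (median 0.52), a share of passing genes near the 22.5% of all genes: Tnfrsf1b, the TNF receptor TNFR2 (2.28 ± 0.34), Tnfaip3, the feedback inhibitor A20 (2.19 ± 0.50), Mlkl, the effector of necroptosis (4.26 ± 1.09), and Tnfrsf10b, the mouse TRAIL receptor (1.83 ± 0.58).

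Of 15 genes of p53 and its targets, 4 rose and 1 fell (median 1.05), where 12.3% of all genes rose and 10.2% fell. Cdkn1a, the cell cycle inhibitor p21, stood at 181 to 823 CPM in tumor and 1.5 to 36.4 CPM in spleen (5.11 ± 0.68, SE; edgeR adjusted p = 0.000213). Perp, a membrane protein gene (6.38 ± 0.57), Phlda3, an inhibitor of AKT (2.41 ± 0.62), and Gadd45a, a DNA damage response gene (1.72 ± 0.49), rose too; Trp53 itself, which did not rank among the 4 smallest p-values of the list and is named for its sign, fell (−1.12 ± 0.37; adjusted p = 0.0411). Of 3 tested genes that control MCL-1 protein turnover, 0 passed in edgeR (1 at an unadjusted p under 0.05 and 1 in DESeq2): the ubiquitin ligase gene Huwe1 was at −0.86 ± 0.32 (adjusted p = 0.0683) and the deubiquitinase gene Usp9x at −0.03 ± 0.38 (adjusted p = 0.962). In both comparisons of genotype labels and in their difference, 0 genes of any of these lists passed in edgeR.

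Genes whose profile over the 14 libraries was most like that of Bcl2 or Bcl2l1 were found among 8007 genes by the root mean square difference of log2 CPM, each profile centred on its mean. Pik3c2b, a class II PI3 kinase gene (0.968), Dtx1, the Notch-linked ubiquitin ligase Deltex (1.08), and Patj, a cell polarity gene (1.29), were nearest to Bcl2, where the median gene was at 2.82. Dtx1 shared the high value in tumor Flox replicate 3, at 38.7 CPM there, 0.731 to 2.93 CPM in the other tumor libraries and 40.7 to 142 CPM in spleen. Lgals1, which encodes galectin-1 (0.242), Aldoa (0.249) and Capg, an actin-capping protein gene (0.284), were nearest to Bcl2l1, where the median gene was at 1.59. Aldoa, a glycolytic enzyme gene, stood at 282 to 449 CPM in tumor and 58 to 87.7 CPM in spleen.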

How the data were processed

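Polyadenylated RNA of 14 Treg samples was sequenced. Per the labels' protocols, a Qiagen RNeasy Plus micro kit was used for extraction and GeneWiz built ultra-low-input libraries. The authors deposited raw read counts per gene, not normalized, in 1 table; the submitters' processing notes name the build mm10, and the sources used here do not give the aligner, counter, annotation or strand setting. Reads shared by overlapping genes or near-identical copies can therefore shift counts between them.

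Of 27179 gene IDs, 25275 were matched to RefSeq symbols on GRCm38.p6; exon lengths and overlaps came from GENCODE M21. Counts were tested with edgeR 4.0.16 in R 4.3.3 (quasi-likelihood F test, TMM, filterByExpr by group, Benjamini-Hochberg over all genes tested, threshold 0.05). Tumor against spleen over both genotypes had genotype as a covariate, the difference of genotype effects used all 14 libraries, and the other fits used the libraries of their contrast. SE is the log2 fold change over the square root of F. Ratios of counts, with 0.5 added, were compared by exact permutation. Intervals cover the spread between libraries. Alternatives were DESeq2 1.42.0, RLE size factors, no filter, other pseudocounts, a replicate block, all 14 libraries in 1 fit, and fits without each library or without both WT replicate 2 libraries. DESeq2 gave no adjusted p for some genes, which stay uncounted.

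The 10 members, the lists and the alternatives were chosen with earlier results of these data known. Named were the 10 members, in each other list up to 4 passing genes by p (or the 2 smallest p where none passed), marker genes of other cell types, and the 3 profiles nearest to Bcl2 and to Bcl2l1. Some genes that this rule names are not reported here. Each test was tested on simulated data with 200 genes changed: for tumor against spleen over both genotypes (11800 genes) 0, 18, 46 and 80% were recovered at 2-, 4-, 8- and 16-fold. The real tissue comparisons called more than 200 genes (2699 over both genotypes), so these shares cannot be carried over to them. No pair of libraries was a duplicate. Same-numbered libraries of the 2 tissues deviated together with correlations of −0.04 to 0.06, so numbers were not shown to pair samples. Figures used matplotlib 3.10.9 in Python 3.11.15.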

Additional observations from a re-analysis of the deposited data

Results flagged for a closer look

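In 4 of the 22 sets of 4 libraries examined, a single library stood far from the other 3 of its group. The cutoff used flags about 1 in 20 sets of normally distributed values. Gene levels were examined as CPM without logs, and the sets were not independent, so the count cannot be set against that rate. Bbc3 was at 123 CPM in spleen WT replicate 2, against 2.07 to 9.47 CPM in the other WT-labelled spleen libraries. That library also had the highest sums of B cell (2136 CPM) and macrophage markers (249 CPM) of the 14 libraries. Bid was at 221 CPM in tumor WT replicate 2, against 3.66 to 10.7 CPM in the other WT-labelled tumor libraries. Macrophage and monocyte markers summed to 168 CPM in that library and to 15.2 to 78.3 CPM in the other tumor libraries. Bak1 was at 9.38 CPM and Bad at 7.81 CPM in tumor WT replicate 1, which had 48 and 40 counts of these genes and the lowest TMM factor, 0.745. The CD8 T and NK cell markers of this library summed to 501 CPM, against 4.85 to 46.3 CPM in the others. What set these libraries apart was not tested.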

How the results depend on the processing

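Over both genotypes, Bcl2l1, Pmaip1 and Bak1 kept their direction and call under every alternative run. Leaving out a library gave 3 to 5 passing members, and leaving out both WT replicate 2 libraries gave 3. The replicate block left the ratio of Bcl2l1 to Bcl2 at 6.71 with an adjusted p of 0.0857, since sign flips of pairs allow few regroupings; numbers were not shown to pair samples, and 2 of 14 libraries correlated best with their own number.

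For Flox-labelled libraries, 847 genes passed for tumor against spleen, and 2910 in DESeq2, 457 with no filter, 1 with the replicate block and 0 to 472 without each library; passing members numbered 3 in DESeq2, Pmaip1 among them (DESeq2 adjusted p = 0.00118), 1 with no filter, 0 with the block and 0 to 1 without each library. For WT-labelled libraries, 750 genes passed, with 2430 in DESeq2, 1514 with all 14 libraries in 1 fit and 173 with the replicate block. There were 329 without both WT replicate 2 libraries and 373 to 658 without each library. Passing members numbered 5 in DESeq2, with Bcl2l11 (DESeq2 adjusted p = 0.00149) and Bad (0.016) beyond the edgeR calls. They numbered 2 with the block and 1 without both WT replicate 2 libraries. With the block the adjusted p was 0.0556 for Bcl2 in WT-labelled libraries, and 0.0709 for Bcl2l1 and 0.125 for Bak1 in Flox-labelled ones (0.108 for Bak1 with no filter); Bcl2 over both genotypes was at −4.50 with the block. DESeq2 called 218 genes for genotype in tumor, 121 in spleen and 125 for the difference, where edgeR called 0; the fit of all 14 libraries called 4 in spleen, and leaving out a library gave 0 to 1 in spleen and for the difference. The causes were not tested. Depth limits Bad, with 3 to 40 counts per library, and Bak1, with 18 to 76. It also limits Bcl2 in tumor, with 6 counts in WT replicate 3 and 14 in Flox replicate 2.

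Some uncalled values changed sign. With the replicate block these were Mcl1 (−0.093) and Bid (−0.29) for tumor against spleen in WT-labelled libraries, Bcl2 (−0.11), Bcl2l1 (0.026), Pmaip1 (0.25) and Bax (−0.038) for genotype in tumor, and Bid (−0.52) for genotype in spleen. With no filter Mcl1 was −0.052, and without both WT replicate 2 libraries Bid was −1.88 in WT-labelled libraries and the difference for Bax was −0.015. Leaving out a library gave ranges that crossed 0 for Bid over both genotypes (−1.99 to 0.74), for Mcl1 (−0.35 to 0.30) and Bid (−1.57 to 2.59) in WT-labelled libraries, and for Bcl2l11 in Flox-labelled ones (−0.51 to 0.89). For genotype in tumor they did for Bcl2 (−0.998 to 3.63), Bcl2l1 (−0.10 to 0.042), Pmaip1 (−1.27 to 0.74), Bax (−0.022 to 0.10), Bad (−0.67 to 0.26) and the ratio (−2.56 to 0.56). In spleen they did for Bcl2 (−0.48 to 0.081), Pmaip1 (−0.25 to 1.93), Bax (−0.23 to 0.0098) and Bid (−1.78 to 1.40), and for the difference for Bcl2 (−0.85 to 3.84) and Pmaip1 (−2.81 to 0.10).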

Other observations

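Among the family genes with too few counts to be tested, some had high values in few libraries, and those named here were chosen after their values were seen. Bok, a BAX-like gene, was at 44.7 CPM in tumor Flox replicate 1 and at no more than 1.35 CPM in the other 13 libraries. Bcl2l15 was at 48.2 CPM in spleen Flox replicate 1 and 59.1 CPM in spleen WT replicate 3, and at no more than 0.563 CPM elsewhere. Bcl2l10 was at 11.8 CPM in spleen Flox replicate 1 and had 0 counts in the other 13 libraries.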
